A study of Sus scrofa with 2 samples.

Results

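HSP70.2-high acinar nuclei were defined in the single-nucleus RNA sequencing library of the pancreas of 1 wild-type (WT) Bama pig. They are the nuclei that passed an acinar marker gate and carried at least 5 unique molecular identifiers (UMIs, each counted as 1 captured RNA molecule) of HSP70.2, an inducible 70 kDa heat-shock protein gene. The gate kept barcodes with 270 to 3700 genes and fewer than 13000 UMIs. It asked for at least 3 UMIs and 0.6% of all UMIs from CHN2, EFEMP1, AGMAT, EXTL1, ADAD1, CDH4 and RBPJL together, and for less than 0.3% from the ductal genes SLC4A4, PKHD1 and SCTR. Of the 13619 barcodes of the WT library, 8925 passed the gate and 2098 of these were HSP70.2-high, out of 28583 barcodes in both libraries. The nuclei were chosen by their HSP70.2 UMIs, and the HSP70.2 level in them is therefore a description with no test.

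The WT pig was 18 months old and had received a control diet until 6 months and then a high-fat and high-sucrose diet for 12 months. The other library came from 1 PIGinH11 pig of the same age and diet, a transgenic Bama pig with GIPRdn, hIAPP and PNPLA3I148M knocked in, with the transgenes under promoters for beta cells or liver, as the study describes them. One piece of the body of the pancreas was used from each pig, with 1 library per pig. The WT library held 55784067 UMIs and the PIGinH11 library 26228811, and 60 barcode sequences occurred in both libraries, 16 of them among the HSP70.2-high nuclei. Genotype, animal, tissue piece and library cannot be told apart in this design, nuclei of 1 pig are not replicates, and no p-value is given. All intervals are exact 95% intervals and cover counting error only.

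Acinar cells make, store and secrete the digestive enzymes, and carry one of the highest loads of secretory protein synthesis in the body. In the heat-shock response, unfolded proteins release the transcription factor HSF1, which activates chaperone genes such as the inducible HSP70 genes, their J-domain partner DNAJB1 and the small chaperone HSPB1, together with the polyubiquitin gene UBB. Immediate-early genes such as EGR1, FOS and JUN encode transcription factors that are transcribed within minutes of a growth factor, calcium or stress signal without new protein synthesis.

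HSP70.2 (ENSSSCG00000029160) lies on chromosome 7 at 23925929 to 23927854 of Sscrofa11.1. The annotation gives HSPA1A and HSPA1B as other names of it, so UMIs of near-identical copies cannot be assigned to one of them. HSPA1L is annotated at 23909960 to 23938678 on the same chromosome, across the HSP70.2 locus, and its UMIs are uncertain for this reason.

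HSP70.2 formed a continuous range across the WT acinar gate and not a separate group of nuclei. Of the 8925 nuclei, 3015 carried 0 UMIs of HSP70.2, 3812 carried 1 to 4, and 2098 (23.5%, 22.6 to 24.4) carried 5 or more. The HSP70.2-high nuclei held 20390 of the 27869 HSP70.2 UMIs of the gate, with a median of 8 and a maximum of 38 per nucleus. The threshold cut through this range. The 460 nuclei with 4 UMIs, just outside, had an HSP70.2 level of 878 CPM (counts per 1e+06 UMIs) at a median depth of 4118 UMIs, and the 397 nuclei with 5 UMIs, just inside, had 993.5 CPM at 4793 UMIs. In all HSP70.2-high nuclei together the level was 1591 CPM.

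Depth set much of who passed the threshold. HSP70.2-high nuclei had a median of 5851 UMIs (5th to 95th percentile 2782 to 10309), against 1836 in nuclei with 0 HSP70.2 UMIs. The share of HSP70.2-high nuclei was 0.158% below 1000 UMIs, 7.40% between 2000 and 3000, 39.9% between 4000 and 6000 and 66.7% between 8000 and 13000. The share at 0 UMIs went the opposite way, from 74.4% to 8.04%. Thus, most deeply captured WT acinar nuclei were HSP70.2-high, and the level itself was higher with depth, from 424 CPM below 1000 UMIs to 970 CPM above 8000.

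**Figure D1:**
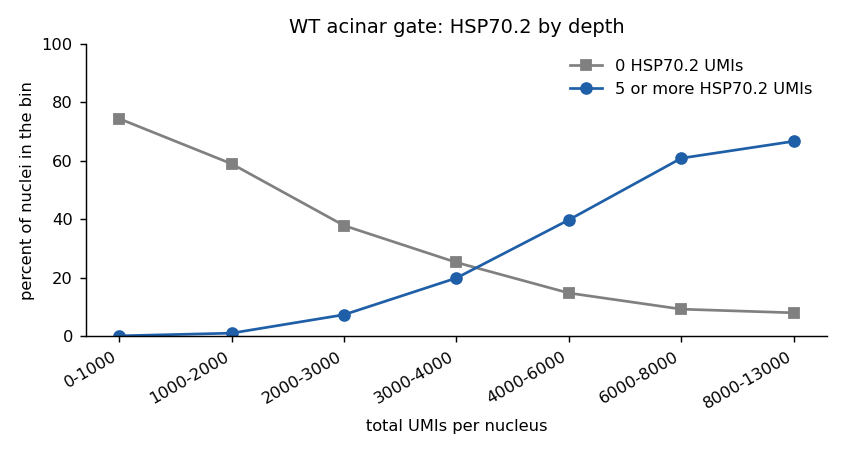
Percent of WT acinar-gate nuclei with 0 and with 5 or more HSP70.2 UMIs, by total UMIs per nucleus. The share of HSP70.2-high nuclei goes from 0.158% in the shallowest bin to 66.7% in the deepest, and the lines cross between 3000 and 6000 UMIs.

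The same rule found 1 nucleus in the 9782 acinar-gate nuclei of the PIGinH11 library. At least 1 HSP70.2 UMI was present in 168 of these (1.72%, 1.47 to 1.99), against 66.2% (65.2 to 67.2) in WT, at median depths of 1260 and 3102 UMIs. When all nuclei were reduced at random to 500 UMIs, with none left out, the shares were 0.480% (0.353 to 0.638) and 26.3% (25.4 to 27.3). The summed level was 837 CPM (827 to 847) in the WT gate and 11.4 CPM (9.89 to 13.1) in the PIGinH11 gate, a ratio of 73.2-fold between these libraries. The libraries thus also stood apart at equal depth, but differences between animals were not measured with 1 pig per genotype.

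Within the WT library, HSP70.2 was highest in the acinar gate, followed by the endothelial gate. The 217 endothelial-gate nuclei had 434 CPM (391 to 481), and 27 of them carried 5 or more UMIs. In the 2196 ductal-gate nuclei the level was 68.3 CPM (63.0 to 74.0) and 2 nuclei carried 5 or more UMIs. The levels of the endocrine, stellate and Schwann gates were near the ductal one, with intervals that overlapped it. They were 69.8 CPM (44.7 to 104) in 86 endocrine, 60.3 (31.1 to 105) in 53 stellate and 82.5 (26.8 to 192) in 23 Schwann nuclei. The 35 immune nuclei were higher, at 138 CPM (73.3 to 236) from 13 UMIs, with an interval that only just overlapped the ductal one. At least 1 HSP70.2 UMI was found in 22.4% of ductal-gate nuclei at a median depth of 3420 UMIs and in 66.2% of acinar-gate nuclei at 3102 UMIs. Reduced at random to 2000 UMIs, the shares were 11.5% (10.0 to 13.2) and 65.4% (64.2 to 66.6). The ductal share is taken as the level that free RNA could give, and how many single UMIs in acinar-gate nuclei it accounts for was not tested. In PIGinH11 the ductal gate had 3.96 CPM (2.11 to 6.78) and the endothelial gate 46.3 CPM (32.4 to 64.1), and all 10 UMIs of the immune gate came from 1 nucleus.

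**Figure D2:**
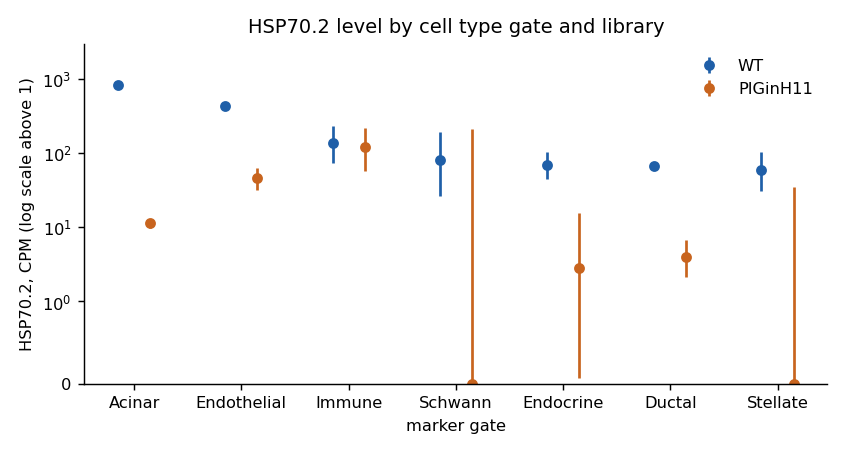
HSP70.2 CPM in each marker gate of the WT and PIGinH11 libraries, with exact Poisson 95% intervals (the axis is logarithmic above 1 and linear below, and starts at 0). The WT acinar gate (837 CPM) and endothelial gate (434 CPM) lie above all other gates of both libraries, and PIGinH11 Schwann and stellate nuclei had 0 UMIs.

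To compare other genes at similar depth, HSP70.2-high nuclei were paired, where one was left, with a WT acinar-gate nucleus with 0 HSP70.2 UMIs within 10% of their total UMIs. This gave 891 pairs and left 1207 HSP70.2-high nuclei of a median of 6863 UMIs without a partner. The paired HSP70.2-high set remained the deeper one, with median depths of 4219 and 3821 UMIs and totals of 4228855 and 3869901 UMIs, which favours its shares of nuclei with a UMI. In the paired sets, the gate genes together took 1.65% and 1.63% of UMIs, and 11.6% and 12.7% of nuclei had doublet scores in the range removed by the alternative filter. Of 6959 named genes with at least 100 UMIs in both sets together, 48 (0.69%) were at least 2-fold higher and 54 (0.776%) at least 2-fold lower in HSP70.2-high nuclei. The median log2 ratio of all these genes was 0.06, and 90% of genes lay between -0.42 and 0.48.

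Immediate-early and heat-shock genes and UBB were among the highest ratios. EGR1, a zinc finger transcription factor, led the list with 1190 UMIs in HSP70.2-high and 158 in matched nuclei, which is 281 against 40.8 CPM and a log2 ratio of 2.78 (2.54 to 3.03). It was detected in 52.5% and 11.3% of the nuclei. FOS, which pairs with JUN in the AP-1 factor, had 308 against 44 UMIs and a log2 ratio of 2.68 (2.22 to 3.17), but was found in only 18.0% of the HSP70.2-high nuclei and 4.15% of the matched ones. Thus, EGR1 was present in about every other HSP70.2-high nucleus at this depth and FOS in fewer than 1 in 5. JUN was the most often detected of the 3, in 68.2% against 27.7% of nuclei, with a log2 ratio of 1.83 (1.67 to 1.98).

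Of the 44 immediate-early genes listed, 40 were in the matrix and 13 passed the 100 UMIs, of which 6 were at least 2-fold higher and none was 2-fold lower, with a median log2 ratio of 0.69. Beside EGR1, FOS and JUN these were the stress factor ATF3 (2.54, 1.79 to 3.37, 108 against 17 UMIs), the MAP kinase phosphatase DUSP1 (1.61, 0.97 to 2.29) and the transcription factor KLF10 (1.01, 0.54 to 1.48). MYC (0.55), KLF6 (0.56), RHOB (0.69) and TRIB1 (0.42) were under 2-fold with intervals above 0. BTG1 (0.09), IER3 (0.01) and ZFP36L1 (-0.05) had intervals that included 0. Several well-known members of the family were almost undetected in both sets. FOSB had 1 UMI in each set, NR4A1 5 and 8, JUNB 10 and 4, IER2 2 and 0, and EGR3, ARC and FOSL1 had 0 in both. The mRNA-destabilizing factor ZFP36 had 73 against 26 UMIs, one short of the 100 required.

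Among the other chaperone genes, a few were several-fold higher and most were close to the median of all genes. Without HSP70.2, 28 of the 43 heat-shock genes in the matrix passed the 100 UMIs, of which 4 were at least 2-fold higher and none 2-fold lower. The median log2 ratio was 0.26. Of the 28, 21 were above 0, beside 60.6% of all 6959 genes. DNAJB1, the J-domain protein that loads substrates onto HSP70, had 410 against 74 UMIs (97.0 against 19.1 CPM) and a log2 ratio of 2.34 (1.98 to 2.72). HSPB1, the small heat-shock protein that holds unfolded proteins, had 421 against 76 UMIs and the same ratio of 2.34 (1.99 to 2.71). Each was detected in a minority of the HSP70.2-high nuclei, with 26.5% against 7.74% for DNAJB1 and 25.3% against 7.18% for HSPB1.

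HSPA8, the constitutive HSP70, had a log2 ratio of 1.62 (1.34 to 1.90), and the collagen chaperone SERPINH1 had 1.07 (0.67 to 1.49). The inducible cytosolic HSP90 gene HSP90AA1 stood at 642 against 374 CPM (0.78, 0.69 to 0.87), whereas the constitutive HSP90AB1 was at 38.5 and 38.8 CPM (-0.01, -0.34 to 0.32). BAG3, a nucleotide exchange factor of HSP70, had a ratio of 0.63 (0.43 to 0.83). The mitochondrial chaperones TRAP1 (-0.03) and HSPA9 (0.16) had intervals that included 0, and that of HSPD1 lay above 0 (0.57, 0.24 to 0.92). The RNA of the regulators HSF1 (-0.10, -0.45 to 0.25) and HSF2 (0.13, -0.22 to 0.47) was close to equal. HSPA6 had 41 against 5 UMIs and HSPA1L 39 against 4, below the 100 required, and HSPH1, the HSP70 exchange factor that often rises with heat shock, had 37 against 24.

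**Figure D3:**
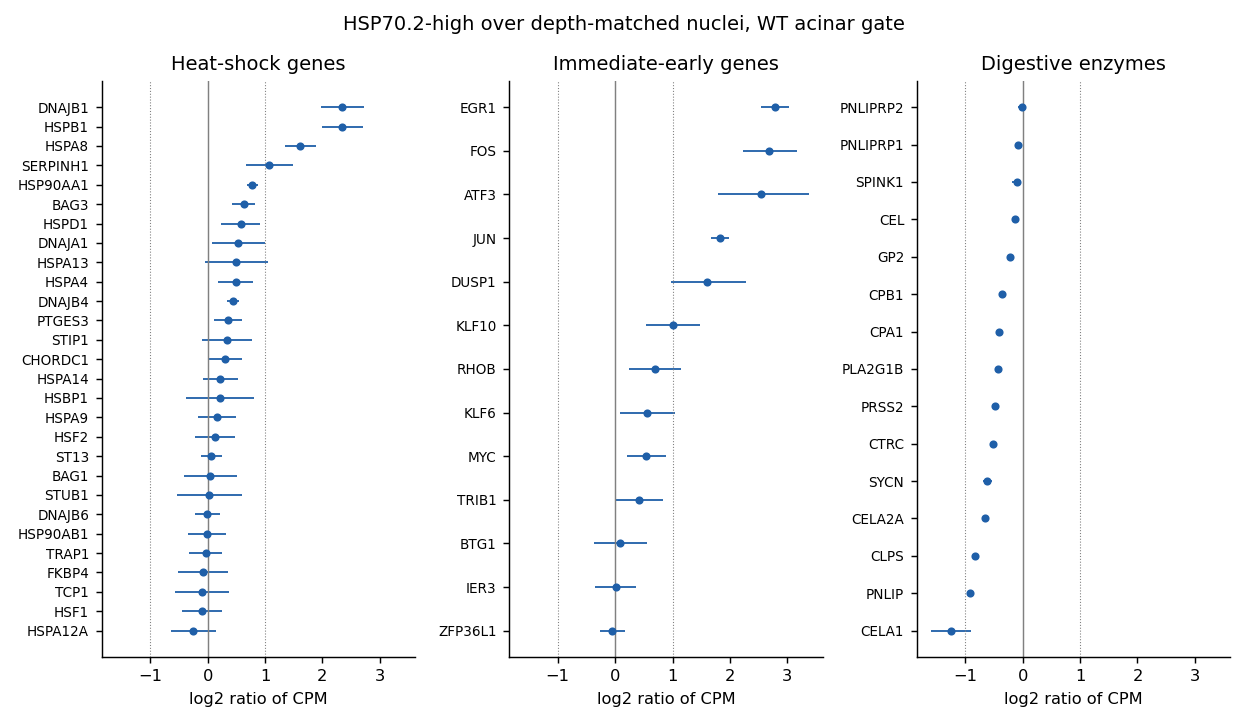
Log2 ratio of CPM in HSP70.2-high over depth-matched WT acinar-gate nuclei (891 each) for the heat-shock, immediate-early and digestive enzyme genes with at least 100 UMIs, with exact 95% counting intervals. Dotted lines mark 2-fold. 4 of 28 heat-shock genes and 6 of 13 immediate-early genes lie beyond 2-fold above, while all 15 enzymes lie at or below 0 and CELA1 lies beyond 2-fold below.

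The polyubiquitin gene UBB was higher. It had 2263 against 553 UMIs (535 against 143 CPM) and was found in 73.7% against 38.1% of nuclei, with a log2 ratio of 1.90 (1.77 to 2.04). The other redox and proteotoxic genes were closer to the median, with 0.74 for GCLC, which limits glutathione synthesis, 0.27 for the metallothionein MT1A, 0.24 for NFE2L2, 0.12 for SQSTM1 and -0.09 for TXNRD1. Other genes among the 15 highest were the glycoprotein hormone gene STC2 (2.15), NETO2 (2.14), LRRTM3 (1.93), the guanine nucleotide exchange factor ARHGEF2 (1.47) and PDK4, an inhibitor of pyruvate dehydrogenase (1.45, 936 against 313 UMIs).

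Most ER stress genes were slightly higher. Of 23 with enough UMIs, 22 were above 0, beside the 60.6% of all genes. The median log2 ratio was 0.28, beside 0.26 for the heat-shock list. The intervals of 14 ER stress genes lay above 0 and of none below, against 12 of the 28 heat-shock genes above and none below. Only CHAC1, which degrades glutathione downstream of ATF4, was past 2-fold (1.13, 0.50 to 1.78, 74 against 31 UMIs). The luminal HSP70 HSPA5 (BiP) was at 60.8 against 50.4 CPM (0.27, 0.00 to 0.55), and XBP1 at 275 against 222 CPM (0.31, 0.18 to 0.44). SEL1L (0.56), EDEM1 (0.54) and HYOU1 (0.72) were the next highest. In the p53 list, SESN2 (1.17) was past 2-fold, CDKN1A (0.71) and PLK2 (0.65) had intervals above 0 and SESN1 had one below 0 (-0.34). The hypoxia list (8 tested, median 0.08) and the inflammatory list (4 tested, median 0.06) had no gene past 2-fold.

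Digestive enzyme genes were lower. All 15 that could be compared were below 0, with a median of -0.43, whereas 60.6% of all 6959 genes were above 0. The enzyme list took 7.26% of UMIs against 9.71% in matched nuclei. PRSS2 (trypsinogen) was at 27669 against 38446 CPM (-0.47, -0.49 to -0.46), the lipase PNLIP at 1655 against 3138 CPM (-0.92, -0.97 to -0.88) and its cofactor CLPS at 2945 against 5244 CPM (-0.83). CELA1, an elastase, was the only one past 2-fold, with 102 against 221 UMIs (-1.24, -1.60 to -0.90). The lipase-related genes PNLIPRP2 (-0.02) and PNLIPRP1 (-0.08) were nearly equal. The acinar transcription factors showed no such shift, with a median of -0.01 over 13 genes, among them NR5A2 (0.12), GATA4 (-0.03), BHLHA15 (0.09) and PTF1A (-0.40, -0.93 to 0.12). Mitochondrially encoded genes (9 of 9 below 0, median -0.38) and ribosomal protein genes (51 of 56 below 0, median -0.22) were lower as well, beside the same 60.6% of all genes above 0. The enzyme list also took 3.60% of UMIs in ductal-gate nuclei, which do not make these enzymes, and the part of free RNA in this result was not tested.

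Of the 15 genes with the lowest ratios, ABCC8 was the only one on an endocrine marker list. PCSK2, a prohormone convertase, had 33 against 212 UMIs (-2.81), ABCC8, the sulfonylurea receptor, 23 against 95 (-2.17), and GRIA3, PID1, KCNB2, LSAMP and NEGR1 were between -2.71 and -2.47. Summed over each list, endocrine, stellate and Schwann markers were lower as well, while immune markers were about equal. Of the endothelial markers, CD36 alone had an interval above 0. Only 3 of the 8 endocrine markers, and no stellate, Schwann or immune marker, had enough UMIs to be compared singly. The 8 endocrine markers summed to 181 CPM in HSP70.2-high and 373 CPM in matched nuclei, with INS the most abundant (152 against 293 CPM) and CHGA at 6 against 58 UMIs. The endocrine markers SST (11 against 7 UMIs, 0.52) and NEUROD1 (12 against 10, 0.14) went the other way, with intervals that included 0. The 6 stellate markers summed to 11.8 and 42.1 CPM, the 4 Schwann markers to 4.26 and 16.3 CPM, the 7 endothelial markers to 59.1 and 47.5 CPM and the 6 immune markers to 17.3 and 17.1 CPM, with COL3A1 (15 against 49 UMIs), SCN7A (13 against 36), CD36 (120 against 61) and CD247 (47 against 42) the most abundant, and with CD3E at 0 in both. ABCC8 was detected in 2.58% and 2.47% of nuclei, so its UMIs were concentrated in few of the matched nuclei.

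At least 3 marker UMIs of one of these cell types were carried by 17 HSP70.2-high nuclei (1.91%) and 31 matched nuclei (3.48%). Without such nuclei, 865 pairs remained, and the number of genes at least 2-fold lower was 13 in place of 54, with PCSK2 at 0.11 and ABCC8 at 0.75. ABCC8 is one of the markers used to leave nuclei out, so its value is partly set by that choice. The number at least 2-fold higher was 50 in place of 48, with EGR1 at 3.13, FOS at 3.00, DNAJB1 at 2.36, HSPB1 at 2.29 and UBB at 1.89. The higher genes were thus as far apart without these nuclei, while most of the lower ones were not.

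A second view, which needs no pairing, used the 1749 WT acinar-gate nuclei of 4000 to 6000 UMIs ordered by HSP70.2. EGR1 was at 26.6 CPM (18.3 to 37.4) in the 259 nuclei with 0 HSP70.2 UMIs, 80.4 in the 465 with 1 or 2, 140 in the 328 with 3 or 4, 213 in the 466 with 5 to 9, 404 (367 to 443) in the 215 with 10 to 19 and 633 (477 to 824) in the 16 with 20 or more. UBB followed the same order with 134, 222, 277, 404, 713 and 990 CPM, and DNAJB1 with 18.5, 32.3, 48.0, 68.9, 141 and 242 CPM. Each step of these genes ran in one direction, so that nuclei under the threshold of 5 UMIs already lay above those at 0. JUN had reached 312 CPM at 3 or 4 UMIs and 408 CPM at 10 to 19, and its last interval (319 to 613) overlapped both. FOS was at 13.7 CPM in the first group, 62.4 at 5 to 9 and 110 at 10 to 19 UMIs.

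HSPB1 ran from 26.6 to 253 CPM over the same 6 groups, HSP90AA1 from 388 to 1013 and HSPA8 from 36.3 to 139 at 10 to 19 UMIs, where its level in the top group (115, 55.2 to 212) was not distinguishable. BAG3 stayed between 91.1 and 124 CPM up to 19 HSP70.2 UMIs, and HSF1 was between 22.9 and 42.0 CPM with no order. PRSS2 went from 33634 CPM at 0 to 24295 at 5 to 9 UMIs and then stayed at 25075 at 10 to 19, and PNLIP from 2455 to 1604 and 1495 CPM. The difference in PRSS2 and PNLIP RNA thus lay mainly between the groups at 0 and at 5 to 9 UMIs.

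**Figure D4:**
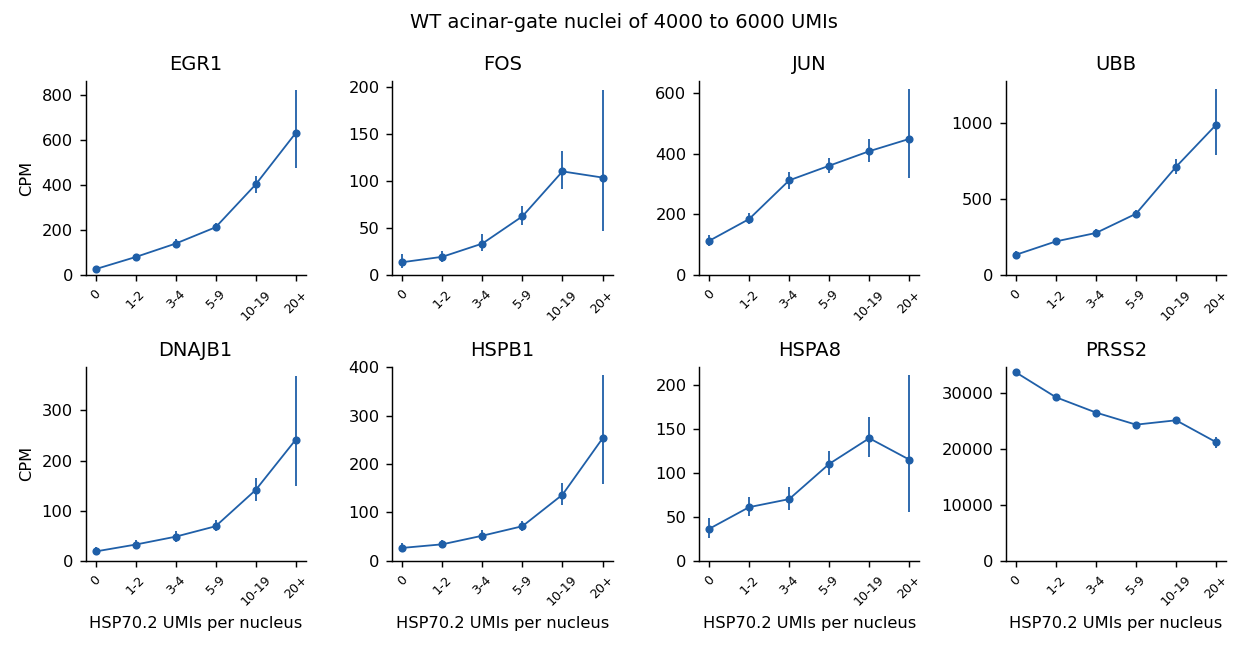
CPM of 8 genes in WT acinar-gate nuclei of 4000 to 6000 total UMIs, by HSP70.2 UMIs per nucleus, with exact Poisson 95% intervals (axes start at 0). EGR1, UBB, DNAJB1 and HSPB1 are higher at each step, FOS and HSPA8 level off in the top group of 16 nuclei, and PRSS2 is lower.

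Detection of these genes differed between HSP70.2-high nuclei. FOS, DNAJB1 and HSPB1 averaged under 1 UMI per nucleus, so 0 UMIs does not show that a nucleus lacked the RNA. Among the 697 of 4000 to 6000 UMIs, JUN was detected in 71.9%, EGR1 in 54.4%, DNAJB1 in 27.8%, HSPB1 in 27.1% and FOS in 20.2%. FOS was found in 25.9% of the nuclei with EGR1 and 13.5% of those without, and HSPB1 in 36.6% of those with DNAJB1 and 23.5% of those without, at closely similar depth (medians of 5153 and 5013 UMIs for the latter pair). DNAJB1 was also found more often with EGR1, in 32.7% of nuclei with EGR1 and 22.0% of those without, while HSPB1 differed less (29.3% and 24.5%). In the 259 nuclei with 0 HSP70.2 UMIs, DNAJB1 was in 23.1% and 6.01%, but HSPB1 in 7.69% and 9.87%. Only 26 of these nuclei carried EGR1. EGR1 and FOS were found together in 14.1% of HSP70.2-high nuclei, against 3.66% of the 793 nuclei with 1 to 4 and 1.16% of the 259 with 0 HSP70.2 UMIs.

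EGR1 and FOS had their highest levels outside the acinar gate. EGR1 was at 148 CPM in all WT acinar-gate nuclei, 310 CPM in the ductal gate and 789 CPM in the stellate gate, where FOS was also highest, at 276 against 39.9 CPM in the acinar gate. JUN (254 CPM), UBB (322 CPM) and BAG3 (106 CPM) were higher in the acinar gate than in the ductal gate, at 20.7, 54.1 and 23.5 CPM. In the ductal gate, a high EGR1 level thus stood beside a low HSP70.2 level.

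The acinar gates of both pigs also differed in these genes. EGR1 was 7.78-fold higher in WT (4929 against 328 UMIs), FOS was at 39.9 and 3.60 CPM, UBB at 322 and 41.7 CPM (7.72-fold), DNAJB1 at 55.1 and 13.2 (4.17-fold), HSPB1 at 54.1 and 15.6 (3.47-fold) and JUN at 254 and 94.6 (2.69-fold). PDK4, which was higher in the HSP70.2-high nuclei of WT, stood at 156 CPM in WT and 498 in PIGinH11. When the 168 PIGinH11 nuclei with at least 1 HSP70.2 UMI were paired with 168 at 0, JUN had 43 against 29 UMIs (log2 ratio 0.57, -0.14 to 1.30) and DNAJB1 12 against 5 (1.26, -0.34 to 3.12), while EGR1 had 5 in each. The same rule in WT, at least 1 UMI against 0 in 2519 pairs, gave 1.14 for JUN, 1.43 for DNAJB1 and 1.76 (1.58 to 1.95) for EGR1. The detected sets were unlike in HSP70.2 level. Of the 168 PIGinH11 nuclei, 148 carried exactly 1 UMI. In the WT gate, 1705 of the 5910 nuclei with at least 1 UMI carried exactly 1, and 2098 carried 5 or more. The PIGinH11 intervals for EGR1 (-2.12 to 2.12), JUN and DNAJB1 include the WT values, so no difference between the libraries was detectable for these genes. For most genes compared in this way the intervals of the libraries overlapped. They did not for PDK4, HSP90AA1, DNAJB4, LSAMP, NEGR1 and CADM2. PDK4 was at 0.83 (0.68 to 0.98) in WT and 0.10 (-0.12 to 0.33) in PIGinH11. HSP90AA1 was at 0.41 (0.34 to 0.48) and -0.18 (-0.54 to 0.18), and DNAJB4 at 0.36 (0.27 to 0.44) and -0.12 (-0.49 to 0.24). LSAMP was at -1.15 (-1.52 to -0.78) and 2.00 (-0.32 to 5.27), the latter from 8 against 2 UMIs. NEGR1 (-1.18 and 1.17) and CADM2 (-1.12 and 0.74) were likewise below 0 in WT and above 0 in PIGinH11. The cause was not tested.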

How the data were processed

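Nuclear RNA was sequenced with 10x Genomics 3' chemistry from 1 WT and 1 PIGinH11 pancreas. The authors deposited raw UMI counts per gene and barcode, aligned to Sscrofa11.1 and counted with Cell Ranger (v3.1.0 in the labels, 5.0.0 in the matrix header), before doublet removal. The study's Seurat version was 3.1.1. Each matrix holds 31908 genes. A symbol was lacking for 15410, and 851 of them, HSP70.2 included, received one by identifier from the reference tables. Median depth was 3216 UMIs per barcode in WT and 1181.5 in PIGinH11.

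The members, gene lists and tests were chosen with earlier results of these data known. HSP70.2-high nuclei were paired without replacement, deepest first, with a nucleus at 0 within 10% of their UMIs, and those with no such nucleus left were not compared. UMIs were summed per set and divided by all UMIs of the set (CPM). Log2 ratios have exact conditional binomial intervals, and used a pseudocount of 0.5 UMIs only where a set had 0 UMIs. Shares have Clopper–Pearson and CPM values Poisson intervals. Genes needed 100 UMIs in both sets together. Named genes were members of the lists and the 15 largest and 15 smallest ratios with at least 10 UMIs in each set. Other gates needed at least 3 UMIs and 0.3% of UMIs (ductal 0.6%) from the markers of that cell type, less than 0.3% from the acinar gate genes, and no second gate passed. No doublets were removed, and Scrublet scores (scanpy v1.11.5) served as an alternative. The ratio and the pairing were tested on simulated data. Python 3.11.15, numpy 2.4.6, scipy 1.17.1 and pandas 2.3.3 were used. Some genes are not reported here.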

Additional observations from a re-analysis of the deposited data

How the results depend on the processing

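No paired analysis was possible because each group has 1 library. The number of HSP70.2-high nuclei and their share of the gate followed the threshold, with 3198 nuclei (35.8%) at a minimum of 3 UMIs and 823 (9.22%) at 10. The 48 genes at least 2-fold higher became 31 at a minimum of 3 UMIs, 29 against nuclei with 0 or 1 UMIs, 134 with all comparison nuclei weighted within bins of depth, 93 without matching, 124 with a minimum of 30 UMIs per gene, and 19 after thinning to 1000 UMIs, where 3190 genes were left to compare. The 54 genes at least 2-fold lower became 23 under a stricter acinar gate, 227 with weighting, 258 without matching, 233 with a minimum of 30 UMIs and 3 after thinning. In alternatives chosen after seeing the data, they became 13 without nuclei with markers of other cell types, where PCSK2 (0.11) and ABCC8 (0.75) changed sign, and 26 at 4000 to 6000 UMIs without pairing. The causes were not tested.

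The median log2 ratio of the enzyme list stayed below 0 in all 15 alternatives, with -0.47 at a minimum of 10 UMIs, -0.36 under the stricter gate, -0.65 with weighting, -0.49 without matching, -0.37 against 0 or 1 UMIs, -0.48 with median-of-ratios scaling, -0.35 as a mean over nuclei, -0.35 after thinning and -0.39 at 4000 to 6000 UMIs. After thinning, which leaves fewer genes per list, the heat-shock median was 0.81 and the immediate-early median 1.79, and otherwise the heat-shock, immediate-early and ER stress medians moved by less than the typical counting error of their genes. Of 3390 values of 226 genes over the alternatives, 2876 lay within the counting interval of the main value. EGR1 ranged from 2.20 to 3.41, FOS from 2.36 to 3.00, DNAJB1 from 2.04 to 2.96 and UBB from 1.66 to 2.36. With 1 pig per genotype, no interval covers differences between animals or tissue pieces.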
